A study of Saccharomyces cerevisiae with 70 samples.

Results

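The genes described here are 31 genes of ergosterol synthesis in the budding yeast Saccharomyces cerevisiae. They comprise the enzymes from acetyl-CoA to ergosterol, their electron donors and accessory proteins, the transcription factors UPC2 and ECM22, the esterifying enzymes ARE1 and ARE2, and HES1. They were matched by gene symbol to the probes of 3 array designs, and all 31 were found on each, among 5577 genes named on any of them. The series held 70 two-colour arrays in 4 time courses. On each array, RNA of a culture arrested with the mating pheromone alpha factor and sampled at a stated time after release carried Cy5, and RNA of an asynchronous reference culture carried Cy3.

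In peroxide I, the label gives 0.24 mM hydrogen peroxide, with 23 arrays at 21 times from 0 to 275 min. In menadione I, it gives 2 mM menadione, a quinone that cycles between redox states and produces superoxide, with 14 arrays from 0 to 210 min. Peroxide II, with 17 arrays from 0 to 180 min, and menadione II, with 16 arrays from 0 to 140 min, used strain DBY8724 for both channels, and their doses are not in the labels. The labels name neither the strain of the first courses nor the moment of oxidant addition. Every course was a single synchronised culture with no untreated course beside it, so effects of the oxidant and of progress through the cell cycle cannot be told apart.

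Ergosterol is the main sterol of yeast membranes, where it has the place that cholesterol has in animal cells. The mevalonate branch builds farnesyl pyrophosphate from acetyl-CoA, squalene synthase joins it to squalene, and squalene is then oxidised, folded to lanosterol and trimmed to ergosterol in the endoplasmic reticulum. The steps of ERG1, ERG11, ERG25, ERG3 and ERG5 consume molecular oxygen; ERG11 and ERG5 are haem proteins of the cytochrome P450 family, and ERG25 and ERG3 hold non-haem iron. Sterol levels act back on the pathway through UPC2 and ECM22, which activate many of its genes when sterols run low.

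Values are log2 ratios of sample over reference, centred on each array's median gene, with several probes of a gene averaged. Base 2 is an assumption. The direction was read from 10 pheromone-induced genes at 0 min, whose median log2 ratio lay between 1.59 and 2.66 in the 4 courses. The marker genes of a cells had median log2 ratios from 0.01 to 1.28 at 0 min, and those of alpha cells from -0.29 to 0.05. Probes without a value made up 1.2 to 26.9% of an array, and the lowest correlation between arrays of a table was -0.303, in peroxide I, where the repeated arrays of 20 min correlated at 0.127 and those of 63 min at 0.407. Times up to 21 min formed the first window of a course, followed by windows of 22 to 50 min, of 51 to 90 min and of all later times. Each later window was compared with the first in limma, with Benjamini-Hochberg adjustment over all genes and a threshold of 0.05. The arrays of a window are different times of 1 culture, so the p-values measure only the spread between these arrays.

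Across the 12 comparisons within a course, 12 of the 31 genes passed the test at least once, in 15 calls. No such total was counted over all genes to set beside these. Of the 15 calls 11 lay at 51 to 90 min, which was also the window with the most calls among all genes in each course. In peroxide I, 4 members (12.9% of the 31 tested) fell in that window and none rose, where 8.72% of all genes fell and 15.3% passed in either direction. In peroxide II, 4 members (13.8% of the 29 tested) rose and 1 (3.45%) fell, where 8.99% of all genes rose, 5.04% fell and 14.0% passed in either direction. With so few genes these shares lie near those of all genes, and nothing particular to the pathway is read from them. ERG13, with values on 66.7% of the second series' arrays, was tested in neither second-series course, and ECM22 was not tested in peroxide II.

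At 22 to 50 min no member passed in peroxide I, where 0.775% of all genes did, and 1 fell in peroxide II, where 1.18% of all genes fell and 3.94% passed in either direction. After 90 min none passed in peroxide I, against 0.108% of all genes, and 2 rose in peroxide II, where 0.507% of all genes rose and 0.634% passed in either direction. With menadione, 2 members fell at 51 to 90 min of menadione I, where 0.684% of all genes fell and 1.91% passed in either direction, and none passed after 90 min, against 1.31%. In menadione II no member passed at 51 to 90 min, against 5.04% of all genes, and 1 fell after 90 min, where 1.68% of all genes fell and 2.89% passed in either direction. In limma no gene at all passed at 22 to 50 min of either menadione course (0%), where 174 genes in menadione I and 444 in menadione II had an unadjusted p under 0.05. The median change of the members lay between -0.40 and 0.06 in the 12 comparisons, and that of all genes between -0.01 and 0.05.

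**Figure D1:**
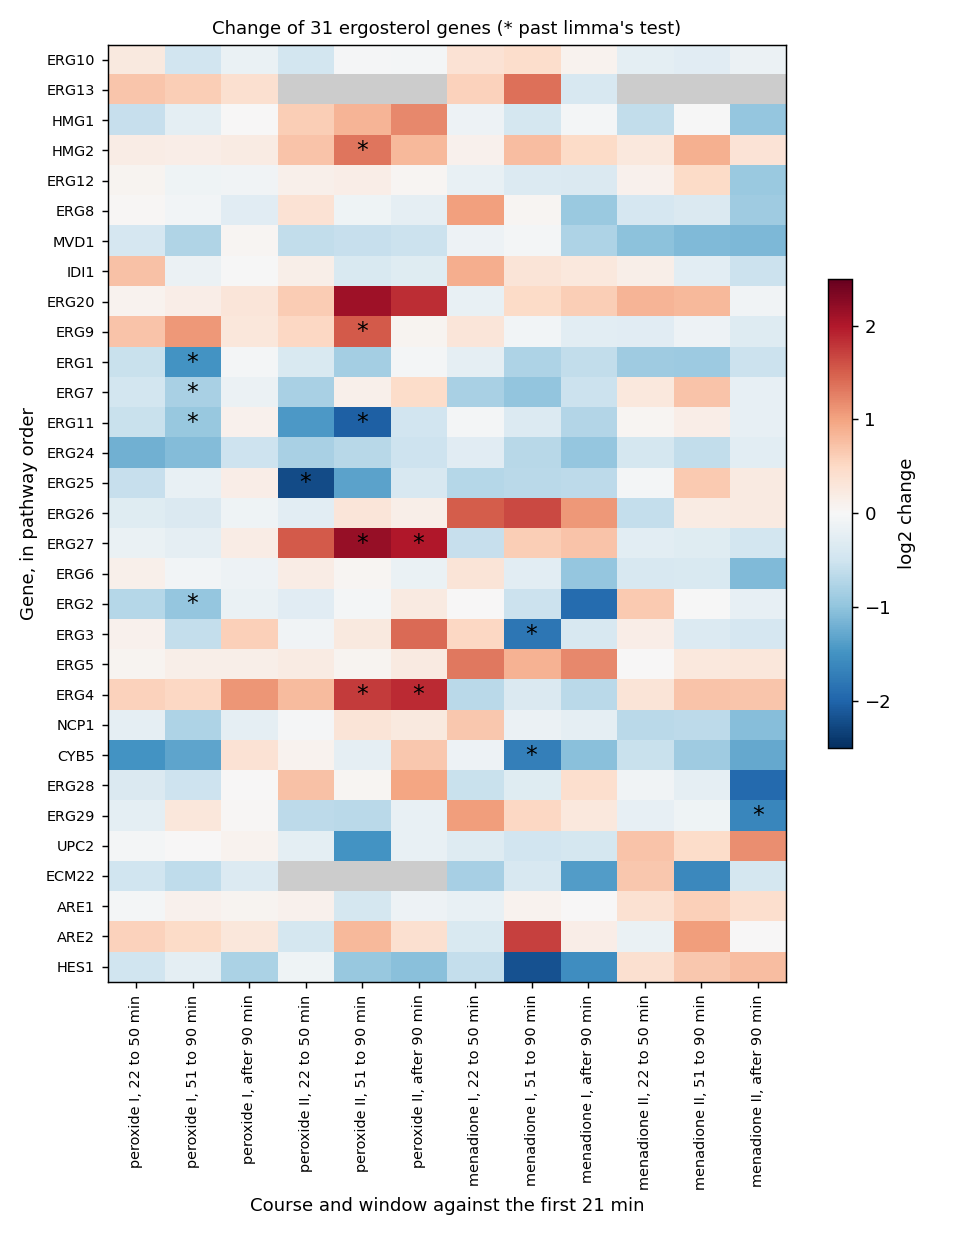
Log2 change of each of the 31 genes (rows, in pathway order) in each window against the first 21 min of its course (columns); asterisks mark changes past limma's test, and grey cells were not tested. The 15 marked cells lie in 12 genes, and the colour scale ends at a log2 change of 2.5 in either direction.

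The mevalonate branch, 9 genes, carried 1 call in the 12 comparisons. HMG2, one of the paired HMG-CoA reductases that make mevalonate, rose in peroxide II. Its log2 ratio was 0.69, 0.32, -0.47 and -1.61 at 0, 7, 14 and 21 min, and 1.19, 0.55, 1.12 and 1.38 at 56, 63, 70 and 77 min. The lowest early value stands at 21 min, and the ranges of the windows overlap. The change was 1.33 ± 0.34 (SE), 2.51-fold, with an adjusted p of 0.00847 in limma. Its 2 probes, fitted separately, gave 1.28 (limma adjusted p = 0.159) and 1.13 (0.0589), neither past the test. The arrays of 14, 21 and 28 min were scanned on another day than the rest of the course; with scan day as a covariate the change was 0.85 (limma adjusted p = 0.172), with the first day's arrays alone 0.56 (0.338), and without the 21 min array 0.88 (0.0624).

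The other reductase, HMG1, had a log2 change of 0.84 ± 0.46 in the same window of peroxide II and of 1.21 ± 0.43 after 90 min, neither past the test. ERG20, farnesyl pyrophosphate synthase, had the second largest positive change of any member in peroxide II at 51 to 90 min, 2.11 ± 0.77 with a limma adjusted p of 0.0632. Its early log2 ratios were -1.82, -2.45 and -4.25 at 0, 7 and 14 min, with no value at 21 min, and its ratios at 56 to 77 min were -0.99, -1.07, 0.02 and -0.90. These windows do not overlap, and the early values differ widely among themselves.

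In menadione II, MVD1, the decarboxylase that makes isopentenyl pyrophosphate, stood below its early level throughout. Its log2 changes were -1.02 ± 0.37, -1.10 ± 0.37 and -1.13 ± 0.37 in the 3 later windows, with limma adjusted p-values of 0.422, 0.0759 and 0.0882, and all 12 later values lay below the 4 early ones. The remaining genes of the branch are ERG10 (thiolase), ERG13 (HMG-CoA synthase), ERG12 and ERG8 (the mevalonate and phosphomevalonate kinases) and IDI1 (the isomerase). None of them passed in any comparison, and the branch's median change lay between -0.71, after 90 min of menadione II with 7 of 8 tested genes below 0, and 0.32, at 51 to 90 min of menadione I.

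At squalene and lanosterol, the 3 successive enzymes were called in different peroxide courses, ERG9 upward in peroxide II and ERG1 and ERG7 downward in peroxide I. ERG9, squalene synthase, takes farnesyl pyrophosphate into the sterol branch and needs no oxygen. In peroxide II its log2 ratio was -1.35, -0.50, 0.75 and 0.15 in the first 21 min and 0.69, 2.06, 1.04 and 1.41 at 51 to 90 min. It rose by 1.54 ± 0.39, 2.90-fold (limma adjusted p = 0.00798), although the lowest later value, 0.69, lies under the early value of 0.75 at 14 min. The change of ERG9 in peroxide I was 1.09 ± 0.41, 2.14-fold, with a limma adjusted p of 0.0733.

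ERG1, squalene epoxidase, carries out the first oxygen-requiring step. In peroxide I its log2 ratio was -0.23, -1.58 and 0.29 at 0, 14 and 20 min, then 0.28, -1.14 and -2.35 at 30, 40 and 49 min. It stood at -2.46, -2.60, -2.27, -1.39 and -1.30 from 55 to 85 min and between -1.32 and 0.00 from 105 min on. The low values form a continuous stretch from 49 to 70 min, and the value of 14 min lies within the range of the 51 to 90 min window. ERG1 fell by 1.50 ± 0.47, 2.82-fold (limma adjusted p = 0.0338). In peroxide II it stood at -2.11 and -2.26 at 49 and 56 min, and its change at 51 to 90 min was -0.85 ± 0.40, not past the test, with early values from -1.56 to -0.01. Fitted separately, its 2 probes in peroxide I gave -1.24 (limma adjusted p = 0.103) and -1.76 (0.0187).

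ERG7, lanosterol synthase, had log2 ratios of -0.22, 0.11 and -0.12 in the first 21 min of peroxide I. From 55 to 85 min they were -1.30, -0.24, -1.33, -0.97 and -0.65, all below the early ones as averaged, with -0.24 only just below -0.22. The value of -0.24, at 63 min, is the mean of a first array at -0.62 and a repeated array at 0.14. The repeated array thus lay above every early value, and the separation of the windows depends on the averaging. The gene fell by 0.82 ± 0.25 (limma adjusted p = 0.0277). In peroxide II the lowest value of ERG7 was -2.96 at 42 min, and the change at 51 to 90 min was 0.13 ± 0.47, not past the test.

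From lanosterol to ergosterol, 10 genes carried 9 of the 15 calls. ERG11, the lanosterol demethylase and the target of azole antifungals, was the only member called in both courses of an agent. In peroxide II its log2 ratio was 0.58, 0.33, 0.10 and 0.37 at 0, 7, 14 and 21 min. It was 0.27, -0.97, -2.87 and -0.76 from 28 to 49 min, then -1.65, -2.63, -0.91 and -1.61 from 56 to 77 min. From 100 min on it lay between -0.48 and 0.24. All 4 values from 56 to 77 min lie below all 4 early ones, and the change was -2.05 ± 0.43, 4.13-fold lower (limma adjusted p = 0.00177).

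In peroxide I, ERG11 stood at -0.57, -0.48 and 0.19 in the first 21 min and at -0.23, -0.92 and -1.37 at 30, 40 and 49 min. Its values from 55 to 85 min were -1.41, -1.35, -1.49, -1.06 and -0.84, again all below the early ones, and from 105 min on they lay between -0.57 and 0.25. The log2 change was -0.94 ± 0.27, 1.92-fold lower (limma adjusted p = 0.0168). Fitted separately, its 2 probes gave -0.34 (adjusted p = 0.326) and -1.55 (0.00624) in peroxide I, and -1.88 (0.0066) and -2.33 (0.00334) in peroxide II. Among all genes, 149 fell in both peroxide courses at 51 to 90 min, 30.8% of those that fell in peroxide I and 53.6% of those in peroxide II. ERG11 was the 1 shared member, 25% of the 4 and 100% of the 1.

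ERG25, the methyl sterol oxidase, was called in an earlier window, at 22 to 50 min of peroxide II. Its log2 ratio was 1.80, 0.56, 0.75 and 0.60 in the first 21 min and -0.24, -0.77, -3.43 and -0.76 at 28, 35, 42 and 49 min. The windows do not overlap, and 42 min holds by far the lowest value of the 4; on that array 26.9% of probes had no value, the highest share in the series. The change was -2.23 ± 0.51, 4.69-fold lower (limma adjusted p = 0.01), and -1.52 (0.0886) without the 42 min array. Its 2 probes gave -2.53 (0.00351) and -1.70 (0.308) when fitted separately. From 56 to 77 min its values climbed from -1.31 to 0.92, and the change at 51 to 90 min was -1.34 ± 0.51 (0.0738). ERG11 changed by -1.43 ± 0.43 (limma adjusted p = 0.0505) at 22 to 50 min of peroxide II. Its lowest value, -2.87, came from the same 42 min array. An order in time between the 2 genes was not tested. The lowest value of ERG25 in peroxide I was -1.55 at 49 min, and the change at 22 to 50 min was -0.58 ± 0.40, not past the test.

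ERG3, a sterol desaturase, was called in menadione I. Its log2 ratio was -0.91, -0.58 and -1.33 at 0, 14 and 20 min and -2.99, -2.82, -3.32 and -1.83 at 55, 70, 77 and 85 min, all 4 below the early range. It fell by 1.80 ± 0.41, 3.49-fold (limma adjusted p = 0.0292). From 100 min on it was -1.80, -1.32, -1.12, -1.34 and -1.12, below its early range at 100 min and within it or at its edge later. In peroxide I the lowest value of ERG3 was -1.90 at 55 min, after -1.14, -0.98 and 0.96 in the first 21 min, and in peroxide II it was -1.76 at 56 min; neither change at 51 to 90 min passed the test.

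ERG5, the side-chain desaturase and the fifth oxygen-requiring enzyme, passed in no comparison. Its log2 ratios spanned -0.67 to 0.48 in peroxide I and -2.71 to 2.55 in menadione II, where both extremes fell within the first 14 min. In peroxide II it had no value at 28 and 42 min and stood at -1.47 at 7 min and -1.56 at 70 min, so it cannot be set beside the lowest values of ERG11 and ERG25 at 42 min.

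**Figure D2:**
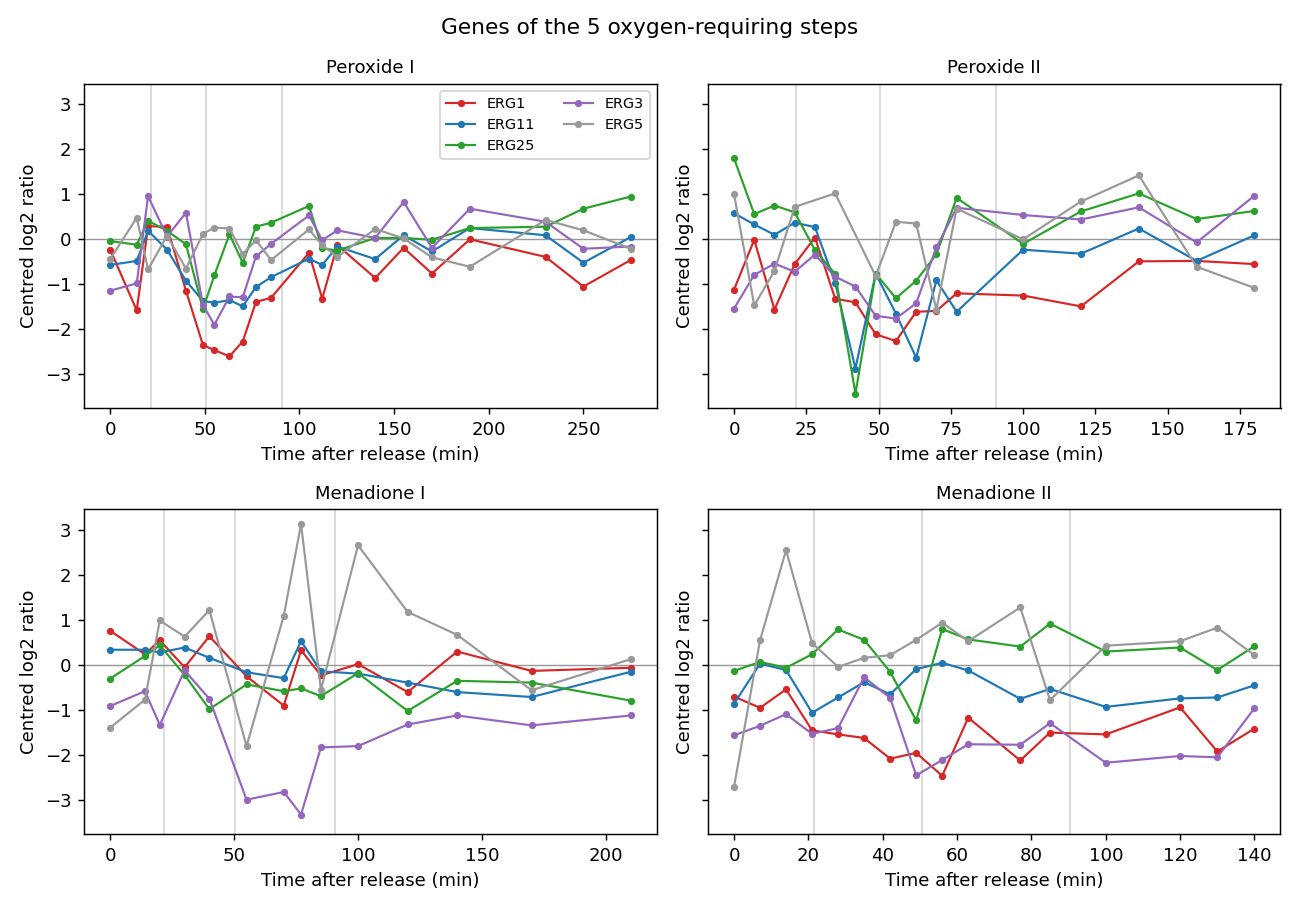
Centred log2 ratio (vertical axis) of the 5 genes of oxygen-requiring steps on every array against time after release in minutes (horizontal axis) in the 4 courses; grey vertical lines divide the windows. ERG1 reaches -2.60 at 63 min of peroxide I, ERG11 and ERG25 reach -2.87 and -3.43 at 42 min of peroxide II, and ERG3 reaches -3.32 at 77 min of menadione I.

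The other reactions after lanosterol include the genes with the largest rises. ERG27, the keto-reductase that acts after ERG25 and ERG26, had log2 ratios of -3.30, -1.67 and -2.27 at 0, 7 and 21 min of peroxide II, with no value at 14 min. From 56 to 77 min it stood at -0.55, -0.38, 0.05 and -0.07, and from 100 to 180 min at -0.22, -0.95, -0.27, -0.65 and 0.07. Every later value lies above the early ones. ERG27 rose by 2.18 ± 0.43, 4.53-fold (limma adjusted p = 0.0014), at 51 to 90 min and by 2.01 ± 0.41, 4.03-fold (0.0141), after 90 min. Without the 0 min array the later rise was 1.57 (adjusted p = 0.099).

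ERG4, the reductase of the last step, was also called in both later windows of peroxide II. Its log2 ratio was -2.45, -1.42, -1.13 and -0.47 in the first 21 min and 0.17, 0.59, 0.24 and 0.50 from 56 to 77 min. From 100 min on it was 1.16, 0.93, 0.52, -0.09 and -0.02, also all above the early values. It rose by 1.74 ± 0.39, 3.35-fold (limma adjusted p = 0.00325), at 51 to 90 min and by 1.86 ± 0.37, 3.64-fold (0.00932), after 90 min, and by 1.50 (0.0544) without the 0 min array. In both genes the asynchronous reference exceeded the synchronised sample at the start, and the later ratios lie nearer to 0. In peroxide I the change of ERG4 after 90 min was 1.10 ± 0.34 (adjusted p = 0.303), and ERG27 showed -0.23 ± 0.39 at 51 to 90 min.

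**Figure D3:**
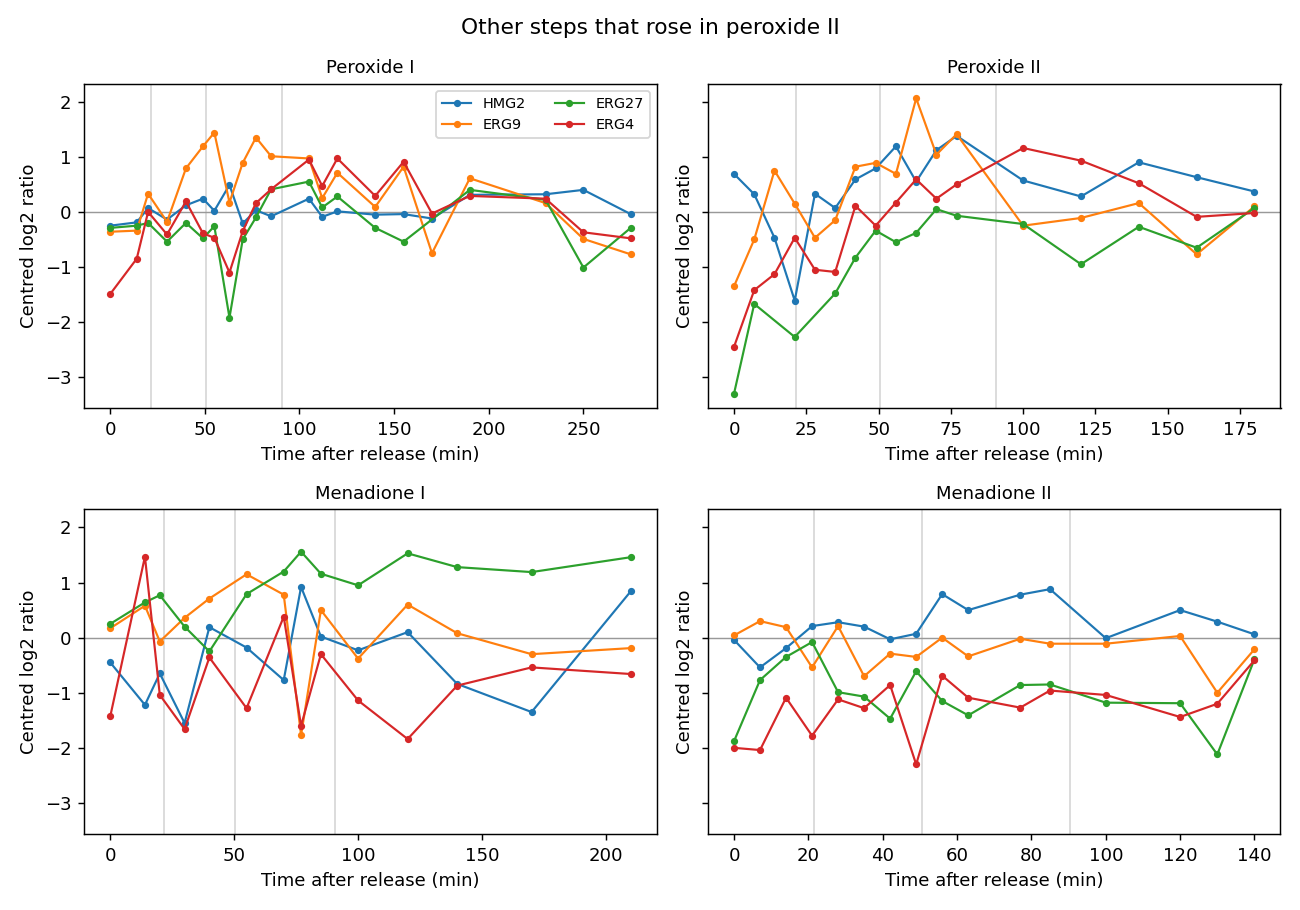
Centred log2 ratio of HMG2, ERG9, ERG27 and ERG4 on every array against time after release in minutes in the 4 courses; grey vertical lines divide the windows. In peroxide II, ERG27 climbs from -3.30 and ERG4 from -2.45 at 0 min to values between -0.95 and 1.16 after 50 min.

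ERG2, the sterol isomerase, fell in peroxide I. Its log2 ratio was -0.55, 0.23 and 0.26 in the first 21 min and -1.41, -1.77, -0.87, -0.65 and -0.27 from 55 to 85 min, where the last value overlaps the early range. The change was -0.97 ± 0.31, 1.97-fold lower (limma adjusted p = 0.036). In menadione I its values after 90 min were -2.49, -2.56, -2.72, -0.59 and -0.77 against 0.02, 0.45 and -0.16 early, a change of -1.93 ± 0.53 that did not pass (0.0999).

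ERG24, the reductase that follows ERG11, ERG26, the decarboxylase, and ERG6, the sterol methyltransferase, passed in no comparison. ERG24 stood at 1.97 at 0 min of peroxide I and between -1.73 and 0.66 at all other times. ERG26 had a change of 1.65 ± 0.54 in menadione I at 51 to 90 min (limma adjusted p = 0.138), where its lowest value was -2.05 at 0 min. Its 2 probes on that design both had values on only 8 of the 14 arrays and differed there by a median of 3.11 log2 units. Its averaged value therefore depends on which probe was measured.

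The peroxide I calls at 51 to 90 min rest on 3 early times. Without the 20 min time point, itself the mean of 2 poorly correlated arrays, none of the 4 genes passed: among the single-time omissions the log2 change ranged from -2.03 to -1.10 for ERG1, from -0.99 to -0.71 for ERG7, from -1.08 to -0.70 for ERG11 and from -1.24 to -0.78 for ERG2. ERG1 also lost its call without 0, 55, 63 or 70 min, ERG7 without 14, 55, 70 or 77 min, and ERG2 without 14, 55, 63 or 70 min. The highest adjusted p among these omissions was 0.21. None of the 4 passed once arrays were scaled to 1 spread, nor with quantile normalization or with window edges at 21, 60 and 110 min, where changes came as near to 0 as -0.75 for ERG1, -0.55 for ERG7, -0.49 for ERG11 and -0.62 for ERG2. ERG7 and ERG2 also lost their calls when the 2 windows were fitted alone, ERG7 with the repeated arrays alone, and ERG2 with array weights and with the first arrays alone. In peroxide II at 51 to 90 min, ERG11, ERG27 and ERG4 passed without any 1 of the 8 arrays and under all 10 other settings, and ERG9 passed without any 1 array. The calls of ERG9 and HMG2 at 51 to 90 min and of ERG4 after 90 min were lost with the other window edges, and these 3, ERG25 at 22 to 50 min and ERG27 after 90 min when the 2 windows were fitted alone. With scan day as a covariate ERG27 after 90 min had an adjusted p of 0.0846.

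Of the electron donors and accessory proteins, CYB5 and ERG29 were called. CYB5, cytochrome b5, passes electrons to the sterol desaturase. In menadione I its log2 ratio was -0.64, -0.42 and 0.03 in the first 21 min and -2.48, -1.87, -2.07 and -1.75 from 55 to 85 min, with no overlap, the same window in which ERG3 was low. It fell by 1.70 ± 0.40, 3.25-fold (limma adjusted p = 0.0333). In peroxide I it reached -3.84 at 49 min and -3.70 at 55 min after early values of -1.06, -0.50 and -0.47, the lowest values of any member in that course. The changes were -1.50 ± 0.57 and -1.32 ± 0.51 in the 2 windows, neither past the test (adjusted p = 0.219 and 0.0866), and the values of -0.82 at 30 and 85 min lay within the early range; without the 30 min array CYB5 passed at 22 to 50 min.

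The calls of ERG3 and CYB5 in menadione I were close to the threshold. ERG3 lost its call without 0, 14, 20, 55, 70 or 77 min, with log2 changes from -2.11 to -1.61 and adjusted p-values up to 0.16. CYB5 lost it without any 1 of the 7 times (-1.85 to -1.51, adjusted p up to 0.15). Both were also lost with scaled arrays, quantile normalization, other window edges and the 2 windows alone, with changes from -1.83 to -1.38 for ERG3 and from -1.70 to -1.39 for CYB5 over the 8 other settings. The direction was the same in every omission.

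ERG29, an accessory protein of the methyl sterol oxidase step, fell after 90 min of menadione II. Its log2 ratio was 1.64, 1.04, 0.74 and 0.47 in the first 21 min and -0.68, -0.70, 0.22 and -1.46 from 100 to 140 min, with no overlap. The change was -1.63 ± 0.46, 3.09-fold lower (limma adjusted p = 0.0494). It lost its call without 0, 7, 14, 100, 120 or 140 min, with changes from -1.92 to -1.36 and adjusted p-values up to 0.158, and with other window edges or the 2 windows alone, with adjusted p-values up to 0.12. NCP1, the reductase that supplies the P450 enzymes, CYB5 and ERG28, the scaffold of the enzyme complex, also had negative changes in that window. None of these 3 passed the test, and the median change of the 4 genes was -1.45. The windows of NCP1 and of ERG28 overlap with their early ones. For ERG28 the change of -1.95 ± 0.90 includes a value of -5.45 at 100 min.

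UPC2 and ECM22, the sterol-responsive activators, passed in no comparison. UPC2 had a log2 change of -1.50 ± 0.53 in peroxide II at 51 to 90 min (limma adjusted p = 0.0568), with -1.11, -1.43, -2.33 and -0.21 at 56, 63, 70 and 77 min. ARE1 and ARE2, which esterify sterols for storage, passed in none either; ARE2 had its largest change, 1.70 ± 0.60 (adjusted p = 0.169), in menadione I at 51 to 90 min. HES1, an oxysterol-binding protein homologue, stood at 1.24, 0.58 and 0.64 early and at -1.83, -0.99, -0.79 and -1.81 in that same window, a change of -2.18 ± 0.66 that did not pass (0.108).

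Set side by side, the oxygen-requiring genes had lower median changes than the 17 other enzymes in both peroxide courses up to 90 min. Menadione I also had such a gap at 51 to 90 min, -0.67 against -0.05. Over the other settings the median there lay between -0.71 and -0.59 for the oxygen-requiring genes and between -0.44 and 0.15 for the 17, so the size of this gap depended on the processing. In peroxide I, at 51 to 90 min, the gap was not seen with arrays scaled to the same spread (-0.18 for both) or quantile normalization (-0.16 against -0.14). With window edges at 21, 60 and 110 min it was not seen in the window between 60 and 110 min (-0.11 against -0.14). At 22 to 50 min the median change of the 5 in peroxide I lay between -0.67 and -0.09 over the other settings. In peroxide II it lay between -1.04 and -0.22. As centred, the median change of the 5 in peroxide I was -0.55, -0.60 and 0.14 in the 3 later windows. That of the 17 was 0.06, -0.14 and -0.01. In peroxide II the medians were -0.39, -0.85 and -0.04 for the 5 and 0.16, 0.14 and 0.11 for the 16 of 17 tested. Among the oxygen-requiring genes 2 fell in peroxide I at 51 to 90 min, and 1 fell in each of the first 2 later windows of peroxide II, while none rose. Of the others, 2 fell in peroxide I at 51 to 90 min, and in peroxide II 4 rose in that window and 2 after 90 min. Among all genes 8.72% fell at 51 to 90 min of peroxide I. In peroxide II 1.18% and then 5.04% fell in the first 2 later windows, and 8.99% and then 0.507% rose in the last 2. With so few genes no difference between the sets is read from these counts.

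On single arrays of peroxide I, the median of the 5 lay below that of the others by 1.07 log2 units at 49 min and by 1.15 at 55 min, and by 0.28 or more at every time from 40 to 85 min. In peroxide II it lay lower by 1.22 at 56 min and by 1.02 at 63 min, and higher by 0.71 at 77 min. At 28 and 42 min of that course ERG5 had no value, so the median is over 4 genes; it lay lower by 1.82 at 42 min, with ERG25 at -3.43, ERG11 at -2.87, ERG1 at -1.40 and ERG3 at -1.05. At 0, 7, 21 and 28 min of peroxide II it lay higher, by 1.12, 0.36, 0.86 and 0.17, and at 14 min the difference was -0.68. The called genes were ERG1 and ERG11 in the first course and ERG11 and ERG25 in the second.

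With menadione, the median change of the 5 in menadione I was -0.04, -0.67 and -0.61 in the 3 later windows and that of the 17 was 0.00, -0.05 and -0.37; 1 of the 5, ERG3, fell at 51 to 90 min. In menadione II the medians were 0.00, 0.16 and -0.21 for the 5 and -0.25, -0.06 and -0.30 for the 16 tested, with no call in either set. ERG1 had changes of -0.89 ± 0.40 and -0.90 ± 0.40 in the first 2 of these windows, not past the test. No test was made of a median.

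**Figure D4:**
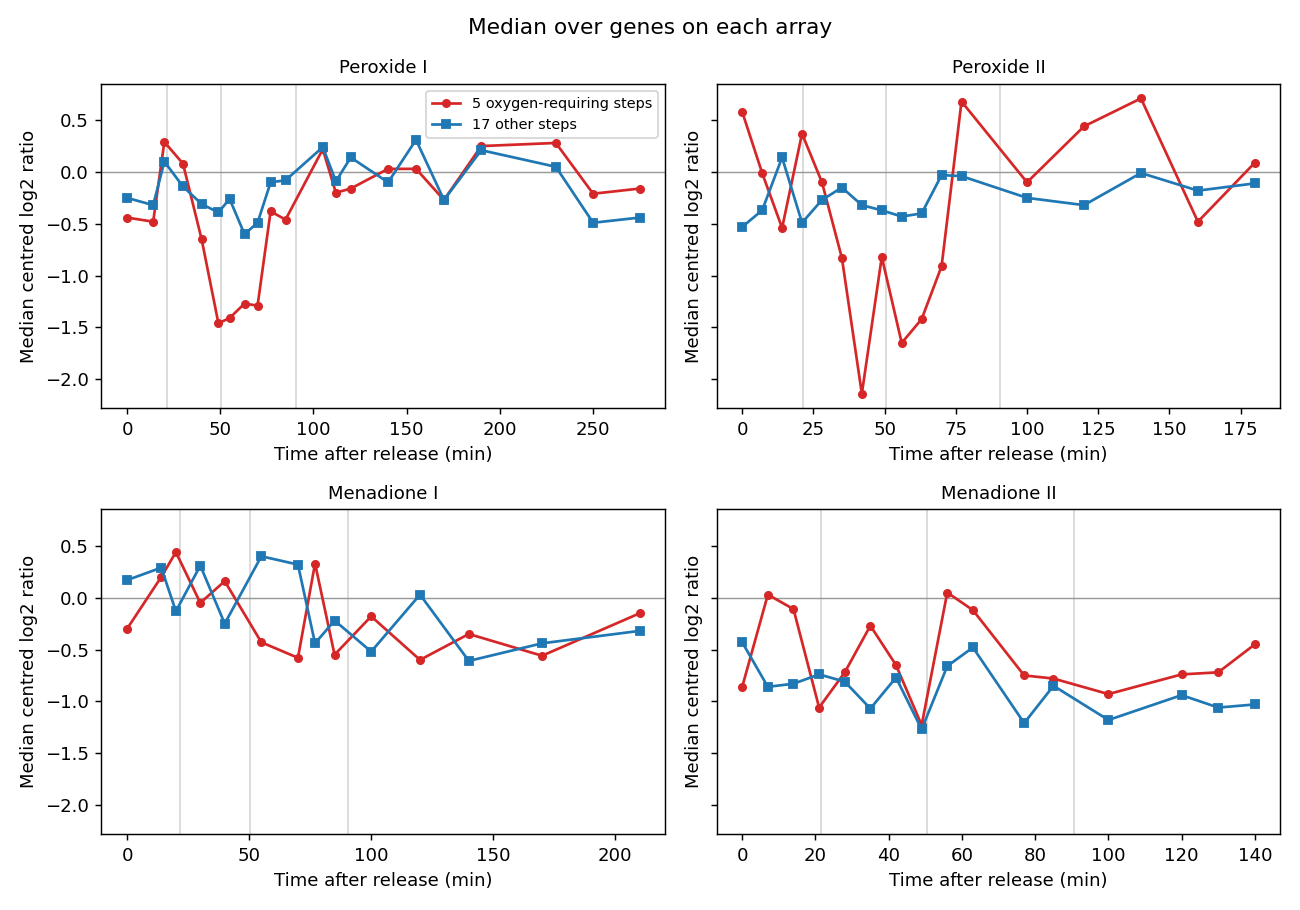
Median centred log2 ratio over the 5 oxygen-requiring genes (circles) and over the 17 other enzyme genes (squares) on each array against time after release in minutes, in the 4 courses; no error is drawn. In peroxide I the circles drop to -1.46 at 49 min while the squares stand at -0.39, and in peroxide II they stand at -1.65 at 56 min against -0.43; at 28 and 42 min of peroxide II ERG5 had no value, and the circles are medians over 4 genes.

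Between the peroxide courses, which share no arrays, 18 of 29 members (62.1%) changed with the same sign at 51 to 90 min, and 65.1% of all genes did. At 22 to 50 min it was 21 of 29 (72.4%), against 60.3% of all genes. Between the menadione courses 18 of 30 members (60%) had the same sign at 51 to 90 min, against 64% of all genes, and 13 of 30 (43.3%) at 22 to 50 min, against 53.8%. The courses differ in array design as well as in strain label and dose information, and these cannot be told apart.

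**Figure D5:**
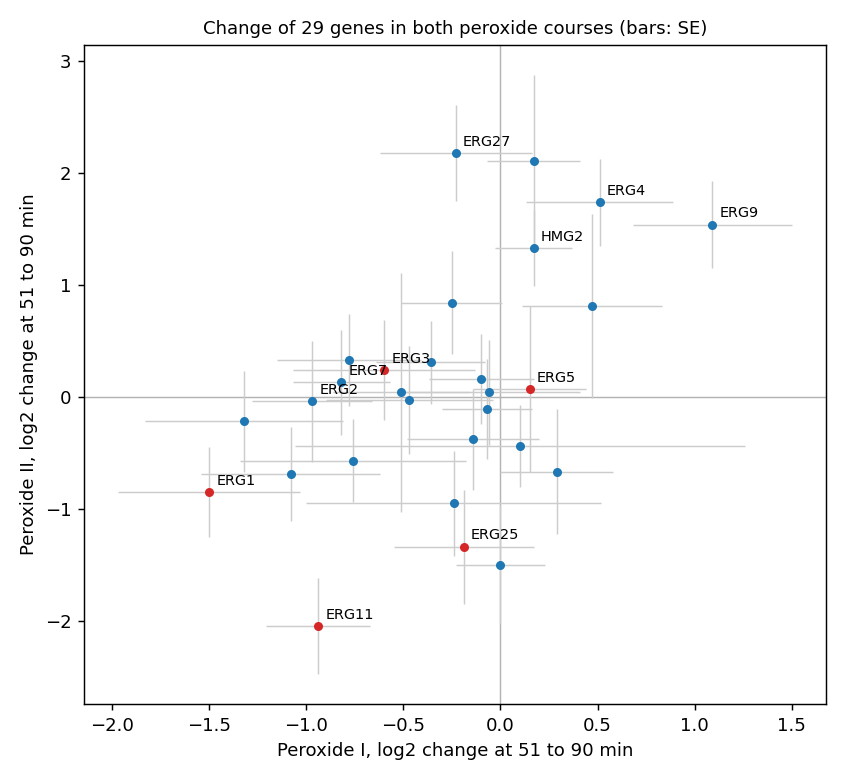
Log2 change at 51 to 90 min in peroxide I (horizontal axis) and peroxide II (vertical axis) of the 29 members tested in both; bars are standard errors, red points are oxygen-requiring steps, and genes of these steps or past the test in either course are named. ERG11 lies low on both axes at -0.94 and -2.05, and ERG27 stands at -0.23 and 2.18.

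Peroxide II and menadione II share a strain and an array design, so the changes could be compared directly as menadione II minus peroxide II. After 90 min the change of ERG27 was lower with menadione by 2.46 ± 0.58 log2 units (limma adjusted p = 0.0322), 1 of 29 members, where 0.906% of all genes were lower and 1.09% passed in either direction. In menadione II ERG27 stood at -1.88, -0.77, -0.35 and -0.08 in the first 21 min and at -1.18, -1.19, -2.12 and -0.39 from 100 to 140 min, so its ranges overlap there. Its mean in the first 21 min was -2.41 in peroxide II and -0.77 in menadione II, and after 90 min -0.40 and -1.22. The courses thus lay further apart in the first window than in the last, and the difference in change includes that early gap. The call was lost under 6 of 11 other settings and without 11 of 17 single arrays, those of 7, 14, 21, 100, 120 and 130 min of menadione II and of 0, 21, 100, 140 and 180 min of peroxide II. The difference lay between -2.77 and -1.94 over the settings, with adjusted p-values up to 0.197, and between -2.83 and -2.01 over the omissions of single arrays, with adjusted p-values up to 0.085.

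No member passed at 22 to 50 min, where no gene of the 5500 tested did (0%; 588 had an unadjusted p under 0.05), or at 51 to 90 min, where 0.145% of all genes did. The difference for ERG11 at 51 to 90 min was 2.20 ± 0.60 (limma adjusted p = 0.0758), for ERG27 -2.47 ± 0.59 (0.0506) and for ERG25 at 22 to 50 min 2.19 ± 0.72 (0.242). The fall of ERG11 and ERG25 with peroxide was not shown to differ from their changes with menadione. Menadione II was scanned on a day of its own, and agent and scan day cannot be told apart for levels.

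Genes around the pathway were described from 6 lists. At 51 to 90 min 15.3% of all genes passed in either direction in peroxide I and 14.0% in peroxide II. At 22 to 50 min these shares were 0.775% and 3.94%. After 90 min 1.31% passed in menadione I and 1.09% in the difference between menadione II and peroxide II. The lists are short, and nothing particular to a list is read from its calls. Of 8 haem synthesis genes, HEM3 (porphobilinogen deaminase) fell in peroxide I at 51 to 90 min, by 1.32 ± 0.40 (limma adjusted p = 0.0254), and HEM12 (uroporphyrinogen decarboxylase) rose in peroxide II, by 1.34 ± 0.34 (0.00847). None of the 8 tested genes of anaerobic mannoproteins and sterol uptake passed in any comparison. Of 3 other oxygen-using lipid enzymes, SUR2, the sphingoid base hydroxylase, fell by 1.93 ± 0.30 (0.0002) in peroxide I at 51 to 90 min and by 2.25 ± 0.53 (0.0472) after 90 min of menadione I, while OLE1 and SCS7 passed in none.

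Of 12 regulators, NSG2, a sterol-sensing partner of HMG-CoA reductase, rose in both peroxide courses at 51 to 90 min, by 1.24 ± 0.30 (limma adjusted p = 0.00542) and by 3.12 ± 0.79 (0.00784). Its paralogue NSG1 rose by 2.14 ± 0.60 (0.0426) at 22 to 50 min of peroxide II. ROX1, the repressor of hypoxic genes, rose by 1.07 ± 0.24 (0.0402) at 22 to 50 min of peroxide I and fell by 1.58 ± 0.50 (0.0317) at 51 to 90 min of peroxide II. HRD1, which with HRD3 marks Hmg2 for degradation, rose by 1.05 ± 0.30 (0.0187) at 51 to 90 min of peroxide I. The change of HRD3 after 90 min, menadione II minus peroxide II, was -4.37 ± 1.09 (0.0446). This difference between 2 single cultures was not examined under the other settings. Of 13 genes of steryl esters and transport, OSH6, a lipid transfer protein, rose by 1.54 ± 0.45 (0.0193) at 51 to 90 min of peroxide II. Of 9 isoprenoid branch genes, RER2, a prenyltransferase of dolichol synthesis, fell by 0.93 ± 0.25 (0.0112) in that window of peroxide I.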

How the data were processed

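The authors deposited 3 tables of log ratios, 1 for each array design, read here as log2 values; base, centring, scaling, direction, spot filter and background correction are not given in the sources used here. Per the labels, Cy5 carried the synchronised sample and Cy3 the asynchronous reference. Probes were named from the platform annotation with symbols updated through gene identifiers; they numbered 50 for the members on the design of menadione I and 37 on each of the others. The mean of a gene's probes was taken, arrays were centred on their median gene, and the repeated arrays of peroxide I at 20 and 63 min were averaged. Genes needed values on 75% of a table's arrays and on at least 2 arrays of each window compared. limma 3.58.1 in R 4.3.3 fitted window means, peroxide I and menadione I on their own and the second series together, with 15 comparisons in all and Benjamini-Hochberg adjustment within each. The procedure was tested on simulated data. Precision is limited by the number of arrays. Every member is named; members past the test are given with their values in the windows compared, and from each list around the pathway at most 4 genes past the test with the largest changes. The members and lists were chosen with earlier results of these data known. Other settings changed centring, scaling, normalization, filter, probe summary, window edges, pooled spread, array weights, scan day, repeats, a time block and single arrays. Fits of each probe on its own were added after seeing the data. No promoter or protein sequence was used here.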

Additional observations from a re-analysis of the deposited data

Results flagged for a closer look

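Of 38 sets of 4 to 10 arrays examined for a single outlying array, 2 had one, where chance alone gives about 1 in 20. Both concern ERG25 in peroxide II. In the first 21 min its log2 ratio of 1.80 at 0 min stood above the other 3 values, whose median was 0.60. At 22 to 50 min its ratio of -3.43 at 42 min stood below the other 3, with a median of -0.76. Both arrays widen the fall reported for ERG25. The change of ERG27 after 90 min differed by -2.46 log2 units, menadione II minus peroxide II, in limma's interaction test. Each of these courses was a single culture. The call was kept under only 5 of 11 other settings and in 6 of 17 omissions of a single array. The means of ERG27 in the 2 courses lay further apart in the first 21 min than after 90 min.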

How the results depend on the processing

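Counts of members past limma's test moved as follows, and no change past the test turned its direction under any setting. With edges at 21, 60 and 110 min the later windows themselves moved, to 22 to 60 min, up to 110 min and all later times. Counts in these 3 windows became 1, 0 and 0 in peroxide I and 3, 3 and 1 in peroxide II. In the last of them the count was 0 in menadione II and in the difference between the agents. In the middle one it was 0 in menadione I. Arrays scaled to the same spread gave 0 in peroxide I and menadione I at 51 to 90 min, and 2 in peroxide II at 22 to 50 min and in the difference at 51 to 90 min. Scaled arrays also gave 7 and 3 in the later windows of peroxide II, and quantile normalization 3 after 90 min. Quantile normalization gave 0 in peroxide I and menadione I at 51 to 90 min and in the difference after 90 min. Fits of the 2 windows alone gave 0 in peroxide II at 22 to 50 and after 90 min. They also gave 0 in menadione II and in the difference after 90 min. In menadione I at 51 to 90 min they gave 1, which was neither ERG3 nor CYB5. Array weights gave 2 in peroxide II at 22 to 50 min, 9 at 51 to 90 min, 4 in menadione I at 51 to 90 min and 2 in the difference at 51 to 90 min. Uncentred values gave 2 in menadione II and 4 in the difference after 90 min. With scan day as a covariate the counts after 90 min were 1 in peroxide II and 0 in the difference; the first scan day alone gave 4 in peroxide II at 22 to 50 min and 0 in the difference after 90 min. Each probe on its own gave 1 in menadione I at 51 to 90 min, 0 in menadione II and 2 in the difference after 90 min. The 1 in menadione I was ERG1, through 1 of its 4 probes (-2.12, limma adjusted p = 0.0325). The other ERG1 probes gave -0.68, -0.56 and 0.33, and neither ERG3 nor CYB5 passed there.

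With sampling time as a replicate block, the difference after 90 min lost its 1 call (0 members), and the other differences stayed at 0. The times mark no shared culture or animal.

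Leaving out 1 array at a time gave 0 to 1 members in peroxide I at 22 to 50 min and 0 to 5 at 51 to 90 min. It gave 0 to 3, 4 to 7 and 0 to 2 in the 3 windows of peroxide II, 0 to 1 in menadione I at 51 to 90 min and in menadione II after 90 min, and 0 to 1 and 0 to 2 in the differences at 51 to 90 and after 90 min.

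The median change of the oxygen-requiring genes at 51 to 90 min ranged over the settings from -0.63 to -0.11 in peroxide I, from -1.17 to -0.60 in peroxide II, from -0.71 to -0.59 in menadione I and from -0.09 to 0.28 in menadione II. It was -0.35 at 22 to 50 min of menadione I with the other edges. That of the other steps was -0.10 at 22 to 50 min of peroxide I with array weights. In peroxide II at 22 to 50 min it was 0.04 uncentred, 0.28 scaled, 0.26 with quantiles and 0.27 with scan day. After 90 min, uncentred values gave 0.31 for peroxide II and -0.45 for menadione II. The cause of these moves was not tested. Few arrays in a window and missing spots limit what could be detected.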
